A study of Homo sapiens with 6 samples.

Results

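The NewGene entries are the 190 transcripts, among 2681 listed entries with values, whose identifier in the deposited table starts with NewGene instead of an Ensembl number. They were taken by that prefix alone, without use of their values, and the other 2491 entries carry Ensembl identifiers. No meaning of the prefix is given in the sources used here, and the table carries neither positions nor sequences for these entries. What is known of each one is its counts, its FPKM (fragments scaled to transcript length and to the number mapped in the library) and the protein names that the table attaches to it.

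Transcripts outside a gene annotation are usually assembled from reads that fall between or beyond known exons. They can be long non-coding RNAs, transcribed pseudogenes, extended ends of known genes, or copies of mobile elements such as LINE-1 retrotransposons, Alu repeats and endogenous retroviruses. When cells are short of oxygen, the hypoxia-inducible factors HIF-1 and HIF-2 bind DNA and raise genes of glycolysis, iron and copper handling and vessel growth, and non-coding transcripts are among the RNAs known to respond.

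RNA was measured in Hep3B, an established line of human hepatocellular carcinoma cells, kept for 24 hours at 20% oxygen (normoxia, 3 libraries) or 1% oxygen (hypoxia, 3 libraries). The genotype of all 6 samples is given as WT, although their treatment field names a genetic modification and the extraction text speaks of subclones, and no construct or agent is named. Nothing states that the 3 libraries of a group came from separate cultures, so the p-values below measure the spread between these libraries, which may be technical. The listed entries held 5474597 to 6128947 counts per normoxia library and 9905692 to 10134230 per hypoxia library, which is a selection of each library and not its depth.

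The table holds entries that its authors had already selected: the largest false discovery rate in the authors' deposited table was 0.00999 and the smallest absolute log2 fold change was 1.00. A call here is therefore a description of a chosen list and no independent evidence of change. As a check of the labels, 8 of 8 listed oxygen-response genes (ANGPTL4, BNIP3, CA9, LDHA, NDRG1, PDK1, SLC2A1 and VEGFA) were higher at 1% oxygen, with a summed FPKM of 532 to 663 in normoxia and 5419 to 6225 in hypoxia. Of 8 hepatocyte markers, 5 were listed (AFP, ALB, APOB, FGB and TF), 1 higher and 4 lower in hypoxia and all above 0 in every library, with a summed FPKM of 10.6 to 12.1 in normoxia and 3.02 to 3.77 in hypoxia. Of the markers of other cell types, 3 of 4 cholangiocyte, 1 of 4 endothelial, 1 of 4 leukocyte and 0 of 4 fibroblast genes were listed, and the summed FPKM of the cholangiocyte genes was 21.8 to 34.0 in normoxia and 70.4 to 106 in hypoxia. The leukocyte gene CD68 had 36.0 to 38.8 FPKM in normoxia and 114 to 127 in hypoxia, and the endothelial gene CDH5 0.121 to 0.419 and 1.47 to 1.63. The part of these markers in the NewGene values was not tested.

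NewGene entries were mostly higher in low oxygen. Of the 190, 154 were higher and 36 lower at 1% oxygen by edgeR's quasi-likelihood test at a Benjamini-Hochberg adjusted p of 0.05 over 2675 fitted entries. Among all fitted entries, 56.7% were called higher and 43.3% lower, and 100% were called in either direction, so the fact of a call carries no information and only the direction and size do. The share called higher was 81.1% of NewGene entries and 54.9% of the 2485 fitted entries with an Ensembl identifier. The median log2 fold change of the NewGene entries was 1.60, beside 1.11 over all fitted entries. As the list is cut at an absolute log2 fold change of 1, these medians depend strongly on the share of entries that rose. Among rising entries alone the median was 1.84 for NewGene and 1.61 for all fitted entries. Among falling entries it was -1.39 and -1.36. Library scaling bears on these levels, because the table lists changed entries only. A trimmed-mean (TMM) scaling over the listed entries shifted the median log2 fold change of all entries by -0.53, and under it 139 NewGene entries were called higher and 36 lower, with a median of 1.08.

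The difference in direction was present at low and at high counts. Among entries with a mean under 100 normalized counts, 79.1% of 67 NewGene and 64.6% of 277 Ensembl entries were higher in hypoxia. From 100 to 500 counts these shares were 84.0% of 94 and 50.1% of 743, and from 500 counts upward they were 75.9% of 29 and 55.5% of 1465. A log2 fold change over 2 was reached by 64 of 190 NewGene entries and by 496 of 2675 fitted entries (18.5%). A log2 fold change under -2 was reached by 6 of 190 NewGene entries and by 164 of 2675 fitted entries (6.13%). The normalized counts of the 2 groups did not overlap in 188 of 190 NewGene entries, beside 99.6% of all fitted entries.

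**Figure D1:**
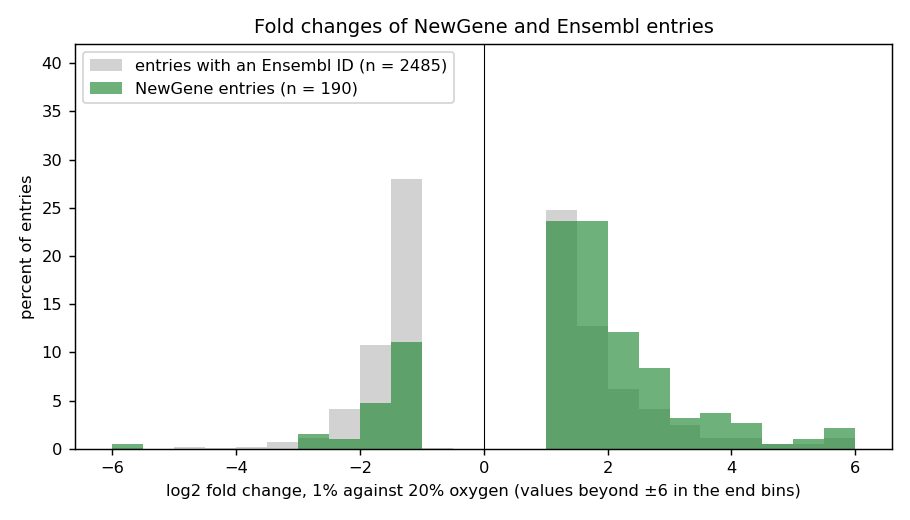
Distribution of log2 fold changes (1% against 20% oxygen, horizontal axis) as a percent of entries (vertical axis) for the 190 NewGene entries and 2485 entries with an Ensembl identifier. The gap around 0 is the authors' selection at a log2 fold change of 1; 154 NewGene entries lie to the right of it and 36 to the left.

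Whether these transcripts lie outside annotated genes could not be checked without positions, but the attached names bear on their label. Of the 2485 fitted Ensembl entries, 2484 are protein coding in GENCODE 29 and 1 is a pseudogene, so the Ensembl entries fitted here held no gene of a long non-coding class. The protein names attached to NewGene entries, in contrast, include symbols that GENCODE 29 does list. A human symbol found there stood beside 82 of the 190, and for 31 of these it is the symbol of a non-coding RNA or pseudogene (20 different symbols, 24 entries higher and 7 lower). Among them are FER1L4, DANCR, ARRDC1-AS1, LINC00205, SNX29P2, WHAMMP3, MAGEA5 and EP400P1. A name is the closest match of a translated stretch and not a locus: LINC00596, for example, was the Swiss-Prot match of 11 entries. The reference's build and annotation may not be those the authors used.

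The attached names were thin for most entries. A match in the NCBI non-redundant protein set (NR) was given for 186 of the 190. It was to a human sequence in 108 cases and to that of another species in 78. Of all 186 NR matches, 58 were named partial and 15 were marked low quality. Swiss-Prot matched 107 entries, KEGG 94 and Pfam, a collection of protein domains, 41. Of 46 entries with both a Swiss-Prot and a KEGG symbol, the symbols were the same in 10. The median KEGG e-value, the number of equally good matches expected in an unrelated database, was 8.13e-24, with 25 entries under 1e-50 and 12 over 1e-10. In the better-matched set of 25 entries, 22 were higher and 3 lower in hypoxia, with a median log2 fold change of 1.68.

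NewGene entries were also low in level. Per length, their median FPKM over the 6 libraries was 1.73, beside 6.34 for the Ensembl entries, and the range ran from 0.299 to 739. The mean FPKM stayed under 1 in both groups for 24 entries, and 18 entries exceeded 10 FPKM in hypoxia and 11 in normoxia. The median coefficient of variation between the libraries of a group was 20.5% in normoxia and 18.2% in hypoxia.

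In hypoxia, though not in normoxia, a pair of entries held most of the summed FPKM. NewGene_10639 was matched only to hCG1640777, a predicted human protein of no described function. Its counts were 10584, 7558 and 8053 in normoxia and 114245, 139669 and 105750 in hypoxia. The hypoxia libraries all lay far above the normoxia libraries, with hypoxia 2 the highest. Its FPKM ran from 97.3 to 121 in normoxia and was 1298, 1597 and 1217 in hypoxia, and its place by mean FPKM among the 2675 fitted entries moved from 104 to 13. The fitted log2 fold change was 3.97 (SE 0.24, edgeR quasi-likelihood adjusted p = 8.79e-06), a ratio of mean normalized counts of 15.7.

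NewGene_1737 was matched to an unnamed human protein and to the Pfam family of RNase H, the nuclease fold that cuts RNA paired with DNA and that retroelements also carry. It had 17621, 18711 and 23118 counts in normoxia and 157071, 116799 and 163757 in hypoxia. Again no library of one group reached the other, but here hypoxia 2 was the lowest of its group. Its FPKM was 94.7, 116 and 137 in normoxia and 863, 595 and 946 in hypoxia, and its place by FPKM moved from 90 to 22. The fitted log2 fold change was 3.04 (SE 0.16, edgeR adjusted p = 5.57e-06), an 8.25-fold ratio of mean normalized counts. Its KEGG match, to the apoptosis regulator BID, had an e-value of 1.45e-18.

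Summed over all 190 entries, FPKM was 677, 653 and 692 in the normoxia libraries and 2860, 2907 and 2877 in the hypoxia libraries, a 4.27-fold difference of the means. NewGene_10639 and NewGene_1737 together made up 33.0% ± 1.33 (SD, n = 3) of it in normoxia and 75.4% ± 0.188 (SD, n = 3) in hypoxia. The other entries summed to 452 ± 11.0 FPKM in normoxia and 709 ± 8.65 in hypoxia (SD, n = 3 each), 1.57-fold more. In normalized counts the same remainder was 2.40-fold higher in hypoxia, so the size of the remainder's difference depends on the scale. NewGene entries held 1.17% ± 0.0565 of all listed counts in normoxia and 3.48% ± 0.0713 in hypoxia (SD, n = 3).

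**Figure D2:**
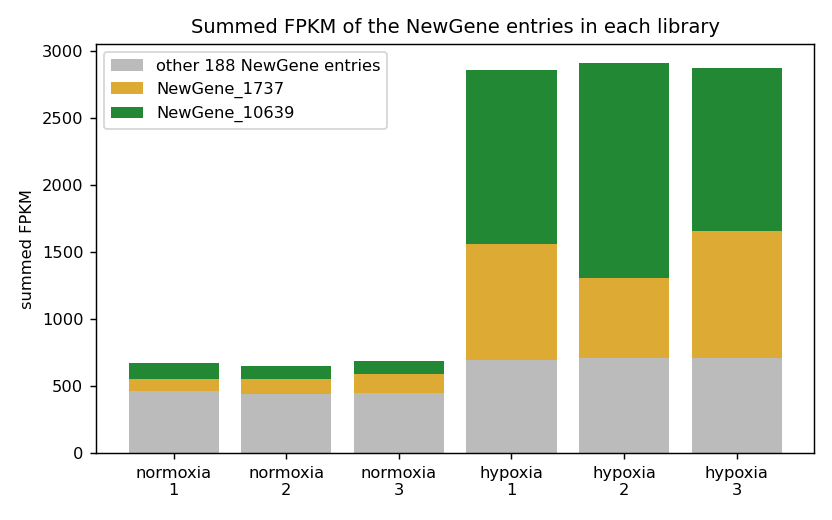
Summed FPKM of the NewGene entries (vertical axis) in each of the 6 libraries, stacked as NewGene_10639, NewGene_1737 and the other entries. The hypoxia bars reach 2860 to 2907 against 653 to 692 in normoxia, and most of the added height belongs to the pair of named entries.

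The third entry by mean FPKM in hypoxia was NewGene_3324, matched to FER1L4, a human pseudogene of the ferlin family of membrane-fusion proteins that is transcribed as a long non-coding RNA. Its Pfam domain was the C2 domain, the calcium-dependent membrane-binding module of ferlins. Counts were 1363, 1048 and 1190 in normoxia and 12902, 14430 and 12483 in hypoxia. The groups were far apart and the libraries within each were close. Mean FPKM was 4.79 ± 0.765 in normoxia and 45.1 ± 4.93 in hypoxia (SD, n = 3), with a log2 fold change of 3.65 (SE 0.19, edgeR adjusted p = 5.04e-06).

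The remaining entries among the 5 highest by mean FPKM over all 6 libraries both fell. NewGene_5141 was matched to DANCR, a non-coding RNA named for its part in holding back cell differentiation, and had 2030, 1635 and 1623 counts in normoxia and 726, 765 and 696 in hypoxia. NewGene_10835, matched to the predicted human protein hCG1734936, had 2185, 1887 and 1990 counts in normoxia and 738, 839 and 848 in hypoxia. In both entries every normoxia library lay above every hypoxia library. Mean FPKM went from 44.4 to 16.8 for NewGene_5141 and from 37.6 to 14.0 for NewGene_10835. They fell by 1.10 and 1.14 on the log2 scale (edgeR adjusted p = 0.000497 and 0.000264).

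The 10 largest rises began from low counts, at most 73 in any normoxia library. NewGene_6978 had 0 counts in the 3 normoxia libraries and 65, 49 and 71 in hypoxia, which is at least 68.8-fold higher taking 3 counts for the whole normoxia group as the floor. It was matched to a hypothetical chimpanzee protein with a casein domain, casein being a milk protein. NewGene_12163, with LINC00596 as its match, also had 0 counts throughout normoxia and 62, 58 and 43 in hypoxia, at least 61.6-fold higher. Both were under 2 FPKM in hypoxia, and the counting error alone is wide at such counts.

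NewGene_7857 was matched to TCAF2, the TRPM8 channel-associated factor 2, which regulates the traffic of a cold-sensing ion channel. Its counts were 0, 9 and 5 in normoxia and 235, 241 and 271 in hypoxia. The lowest hypoxia library stood far above the highest normoxia library. The log2 fold change was 5.87 (SE 0.60, edgeR adjusted p = 6.95e-05). It was 6.77 without normoxia 2, which holds most of the few normoxia counts, and 5.30 without normoxia 1. The size of the rise is therefore uncertain.

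NewGene_7775 had the highest counts among the 10, with 73, 32 and 38 in normoxia and 1546, 1235 and 1401 in hypoxia. Its matches did not name 1 gene: Swiss-Prot gave the SGT1 homolog, NR fukutin, a protein of dystroglycan glycosylation, and KEGG a CCR4-NOT subunit with an e-value of 3.84e-06. The log2 fold change was 5.03 (SE 0.32, edgeR adjusted p = 1.03e-05). NewGene_7773, which shares all of these matches and was chosen after its values were seen, had 70, 62 and 114 counts in normoxia and 1207, 897 and 1116 in hypoxia, a log2 fold change of 3.88. Both rose, NewGene_7775 by more, and reads that fit both could have been divided between them.

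Of the remaining 6 rises, NewGene_9138 (118, 129 and 166 counts in hypoxia against 8, 0 and 0) and NewGene_9421 (153, 75 and 112 against 0, 6 and 3) had only uncharacterized proteins as matches. NewGene_8603, matched to the zinc finger protein ENSP00000375192, had 0, 3 and 5 counts in normoxia and 96, 77 and 45 in hypoxia. NewGene_3464, matched to C8orf44, had 17, 6 and 10 counts against 213, 231 and 186. In all of them every hypoxia library exceeded every normoxia library. NewGene_1972, matched to the antisense transcript CCDC28A-AS1, had 7, 6 and 0 counts against 79, 88 and 64. With so few normoxia counts the fitted folds of NewGene_9138, NewGene_9421, NewGene_8603 and NewGene_1972 moved by over 1.5 times when 1 normoxia library was left out, and none is given here. NewGene_4556 is described with its matched gene, ceruloplasmin.

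The 10 largest falls were led by NewGene_6324, which carried no annotation at all. Its normalized counts were 92.7, 89.2 and 93.0 in normoxia and it had 0 counts in all 3 hypoxia libraries, at least 86.0-fold lower with the same floor for the hypoxia group. It was the only one of the 190 entries listed at 0 throughout hypoxia. Its mean FPKM in normoxia was 1.15 ± 0.0853 (SD, n = 3).

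NewGene_145 was matched to the interleukin-9 receptor, a receptor of a lymphocyte growth factor, with a KEGG e-value of 4.45e-145. Its counts were 55, 51 and 50 in normoxia and 8, 7 and 2 in hypoxia, and its mean normalized count went from 49.0 ± 3.54 to 6.12 ± 3.56 (SD, n = 3; SE of the log2 fold change 0.44, edgeR adjusted p = 0.000348). NewGene_2995, matched to TRIM3 and to a RING finger protein, names of ubiquitin ligases, went from 477, 427 and 542 counts to 94, 37 and 58 and fell by 2.78 on the log2 scale. All hypoxia libraries of both entries lay below their normoxia libraries.

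The other falls were smaller or rested on fewer counts. NewGene_9318, matched to C14orf178, fell by 2.38 on the log2 scale, and NewGene_1997 and NewGene_3318, both matched to GVQW1, fell by 2.17 and 1.70. NewGene_8657, matched to C16orf89, fell by 1.93 on the log2 scale from 132, 114 and 97 counts to 24, 32 and 23. NewGene_12047 (SP3) and NewGene_11089 (AKR1B15) are described with their matched genes, and NewGene_9047 with the LINE-1 entries.

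**Figure D3:**
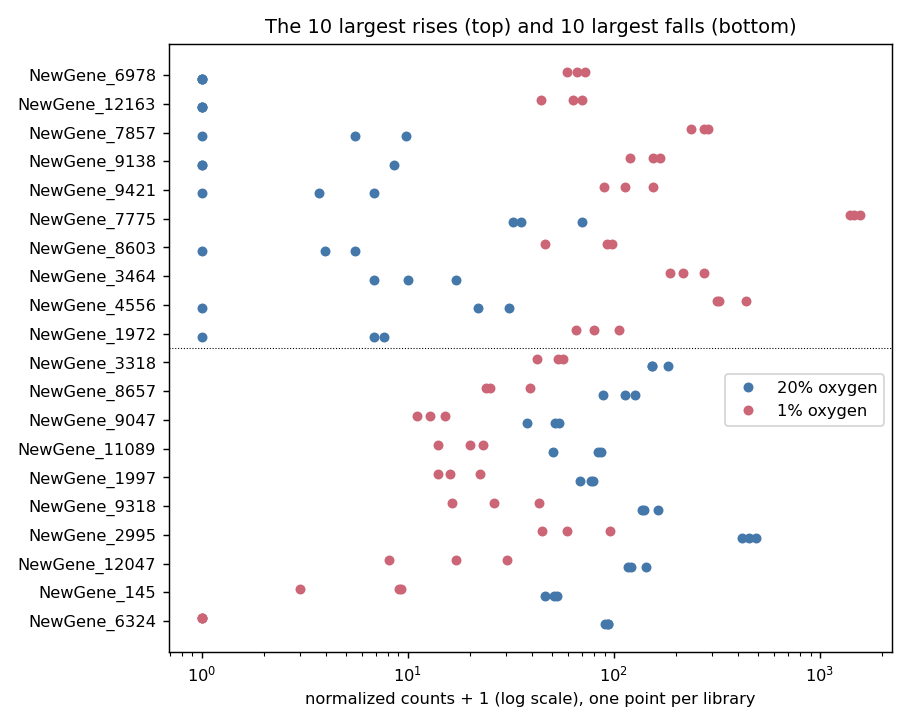
Normalized counts plus 1 in each library (horizontal axis, log scale) for the 10 NewGene entries with the largest rises and the 10 with the largest falls by log2 fold change, with a mean of at least 20 normalized counts and no overlap between groups. In each row the 3 normoxia points and the 3 hypoxia points are apart; NewGene_6978 and NewGene_12163 sit at 0 counts in normoxia and NewGene_6324 at 0 in hypoxia.

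Mobile-element names formed a small class. LINE-1 elements copy themselves through an RNA intermediate using the proteins ORF1, which binds the RNA, and ORF2, an endonuclease and reverse transcriptase. Of 9 entries matched to retrotransposon or DNA transposon proteins, 7 were higher and 2 lower, or 77.8% higher, beside 81.1% of all NewGene entries and 56.7% of all fitted entries. Their median log2 fold change was 1.46, beside 1.60 and 1.11. Entries of this kind resemble many genomic copies, and how reads with several matching positions were counted is not given in the sources used here, so their values are uncertain.

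Among the 7 entries matched to LINE-1 ORF2, 5 rose and 2 fell. NewGene_4100 had 1098, 1086 and 1193 counts in normoxia and 2474, 2429 and 2556 in hypoxia, with no overlap and little spread in either group. Its log2 fold change was 1.32 (SE 0.13, edgeR adjusted p = 5.72e-05), and its mean FPKM went from 10.6 to 22.1. NewGene_2486 rose from 600, 653 and 965 counts to 2635, 1587 and 2946, a log2 fold change of 1.85.

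The falling ones were NewGene_1363 and NewGene_9047. NewGene_1363 went from 1142, 1161 and 1334 counts to 393, 345 and 527 and fell by 1.36 on the log2 scale (SE 0.17, edgeR adjusted p = 0.000158). NewGene_9047 went from 56, 52 and 41 counts to 14, 10 and 10. At matched name, then, entries of similar normoxia level went opposite ways, as NewGene_4100 and NewGene_1363 did.

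The one entry matched to LINE-1 ORF1, NewGene_5318, was chosen after its values were seen. Its normalized counts were 96.5, 109 and 80.3 in normoxia and 481, 632 and 487 in hypoxia, a log2 fold change of 2.48 (SE 0.22, edgeR adjusted p = 3.95e-05). NewGene_7604, matched to a Tigger element, a DNA transposon, had 426, 343 and 393 counts against 982, 1070 and 992, a log2 fold change of 1.57. In both entries all hypoxia libraries were above all normoxia libraries.

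Endogenous retrovirus names stood beside 6 entries, of which 5 rose and 1 fell, or 83.3% higher, close to the 81.1% of all NewGene entries and beside 56.7% of all fitted entries. Endogenous retroviruses are remnants of germline infections, and group K is the youngest human family. NewGene_3873, matched to the polymerase (Pol) of the group K member ERVK-7, had 268, 199 and 225 counts in normoxia and 794, 799 and 817 in hypoxia, a log2 fold change of 1.98 (SE 0.18, edgeR adjusted p = 4.34e-05). NewGene_2984, matched to another group K Pol, rose from 98, 107 and 85 to 350, 222 and 358 counts, a log2 fold change of 1.83. NewGene_9756, matched to a group K Rec protein, which exports viral RNA from the nucleus, rose from 46, 17 and 24 to 133, 84 and 83 counts.

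The fall was NewGene_1797, whose Pfam domain was the integrase of murine leukemia virus. It had 704, 773 and 836 counts in normoxia and 276, 205 and 235 in hypoxia, with no overlap, and fell by 1.53 on the log2 scale (SE 0.16, edgeR adjusted p = 8.63e-05). The last members of the class, named here to complete it, were NewGene_8727, matched to syncytin-1, the envelope protein that fuses placental cells, with a log2 fold change of 1.76, and NewGene_6477, matched to a group K Gag, with 1.33.

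Zinc finger names, mostly of DNA-binding proteins, stood beside 13 entries, 9 higher and 4 lower, with a median log2 fold change of 1.73. The share higher, 69.2%, lay between the 56.7% of all fitted entries and the 81.1% of all NewGene entries. The 5 entries that shared the match ENSP00000375192 were all higher. NewGene_10869 and NewGene_10870 are 2 of them with neighbouring numbers and the same NR match: the first went from 672, 469 and 472 counts to 1390, 1937 and 1337 (log2 fold change 1.73), the second from 122, 125 and 82 to 733, 805 and 761 (log2 fold change 2.98). Neither entry's groups overlapped. NewGene_2540, matched to ZBTB45, fell by 1.35 on the log2 scale from 488, 337 and 433 counts to 97, 172 and 163.

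The largest classes were 92 entries with uncharacterized proteins (79 higher, 13 lower, median log2 fold change 1.67) and 66 with a named protein (51 higher, 15 lower, median 1.54). In 54 entries the Swiss-Prot match was shared with another NewGene entry, over 11 matches, and of these 46 were higher and 8 lower. C9orf85 was the match of 10 entries (9 higher, 1 lower), LINC00596 of 11 (9 higher, 2 lower) and GVQW1, named for a peptide motif that antisense Alu sequence encodes, of 8 (6 higher, 2 lower). The 136 entries with no shared match counted 108 higher and 28 lower, so a shared name and its absence went with shares of 85.2% and 79.4% higher. KEGG names repeated in the same way: 10 entries with 4 different Swiss-Prot names were all assigned to the ubiquitin and ribosomal L40e fusion protein, with e-values from 5.89e-28 to 5.64e-06. Entries that share a match may share sequence and are no replicates of each other.

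The most abundant others of these classes were of a like pattern. NewGene_166, matched to a mastin-like protein with a trypsin domain, a serine protease fold, had 570, 369 and 327 counts in normoxia and 1901, 2340 and 1991 in hypoxia, a log2 fold change of 2.48. NewGene_5957, matched to GVQW3, rose from 1102, 1201 and 1410 to 4926, 3264 and 5417 counts, a log2 fold change of 2.03. NewGene_12201, matched to GVQW1, rose from 344, 342 and 430 to 1434, 952 and 1621 counts. In each, all hypoxia libraries lay above all normoxia libraries. NewGene_9354 and NewGene_7524, with uncharacterized matches, rose by less, with log2 fold changes of 1.58 and 1.11. Of the 4 entries without any annotation, NewGene_7244, NewGene_7075 and NewGene_2696 rose, from 9 to 83 counts in normoxia to 49 to 140 in hypoxia, of which NewGene_2696 lost the call with TMM scaling (log2 fold change 0.96, edgeR adjusted p = 0.0568).

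**Figure D4:**
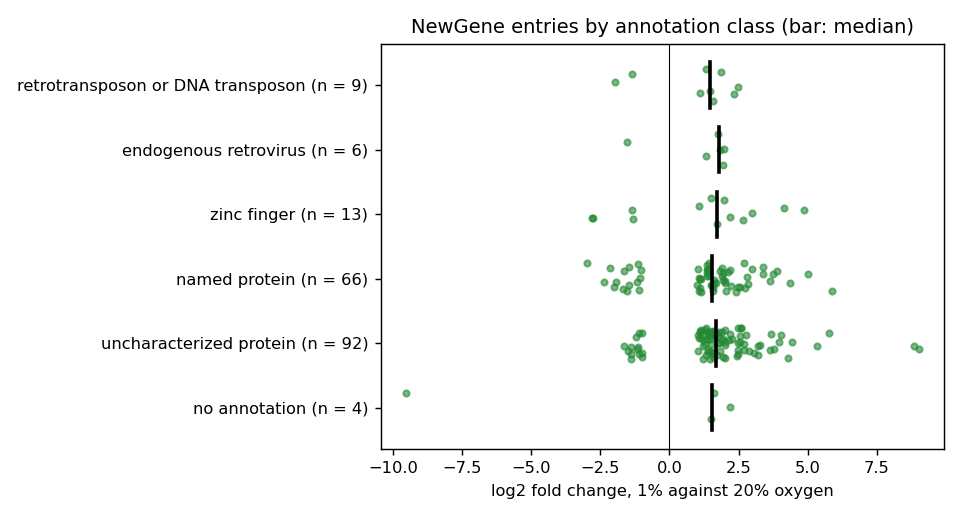
Log2 fold change (1% against 20% oxygen, horizontal axis) of each NewGene entry, 1 point per entry, grouped by what the annotation columns name; vertical bars mark class medians. Every class holds entries on both sides of 0, with class medians between 1.46 and 1.79.

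In 12 cases reported here the symbol matched to a NewGene entry was also listed as an Ensembl entry, so the NewGene transcript could be set beside the gene it resembles. Both moved the same way in 10 of 12 pairs. The pairs are not all of different genes, as NewGene_3464 and NewGene_4747 were both set beside C8orf44. Of all entries, 81.1% of NewGene and 54.9% of Ensembl entries were higher in hypoxia, so many pairs would share a direction anyway. Since every listed entry was selected as changed, and reads of near-identical stretches may be divided between the entries, this count describes the list. Whether a NewGene entry overlaps its matched gene is not known here.

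TCAF2 itself had 3, 4 and 9 counts in normoxia and 258, 162 and 211 in hypoxia, a log2 fold change of 5.43 (SE 0.39) beside 5.87 for NewGene_7857. The fold changes differed by less than the SE of NewGene_7857, 0.60, which is itself imprecise at so few normoxia counts. Per length, the NewGene entry was the higher in hypoxia, at 3.13 FPKM against 1.48.

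Ceruloplasmin (CP) is a copper-carrying ferroxidase that the liver secretes. Its gene had 1740, 1514 and 2428 counts in normoxia and 7690, 4988 and 8077 in hypoxia, a log2 fold change of 2.03 (SE 0.20). NewGene_4556, with a KEGG e-value of 1.14e-130, had 22, 0 and 33 counts in normoxia and 312, 271 and 434 in hypoxia. Its log2 fold change was 4.38 (SE 0.75, edgeR adjusted p = 0.000728). Leaving out normoxia 2 gave 3.81 and leaving out normoxia 3 gave 5.07, so the size of the rise is uncertain. Both sets of libraries were apart, and the NewGene entry stayed far lower in level, at 1.95 FPKM in hypoxia against 42.2 for CP.

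The Ras GTPase-activating protein RASA4, which switches off Ras in response to calcium, and its near-identical copy RASA4B both rose with their NewGene matches. The log2 fold changes were 2.13 for NewGene_7314 against 3.11 for RASA4, and 1.38 for NewGene_7311 against 2.84 for RASA4B. Reads of these copies are hard to tell apart. The other pairs that rose were RAC1, a GTPase of the actin skeleton (1.15 for NewGene_5116, 1.24 for the gene), MST1, the liver-secreted macrophage-stimulating protein (1.04 for NewGene_10321, 1.80 for the gene), and C8orf44 (4.42 for NewGene_3464 and 2.89 for NewGene_4747, 1.62 for the gene). NewGene_10321 was matched to MST1 by KEGG alone, and Swiss-Prot gave MST1L, the symbol of a transcribed pseudogene. With TMM scaling NewGene_5116 and NewGene_10321 lost the call, at log2 fold changes of 0.62 and 0.50 (edgeR adjusted p = 0.101 and 0.128).

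Falling pairs were RWDD4 and AKR1B15, an aldo-keto reductase that reduces steroids and retinal. NewGene_11089 was tied to AKR1B15 by KEGG alone, with an e-value of 9.6e-14, a far weaker match than the 1.14e-130 of NewGene_4556. NewGene_11089 went from 87, 87 and 55 counts to 22, 16 and 13, a mean normalized count 0.249 times that in normoxia, while AKR1B15 went from 4303, 4549 and 4542 to 788, 664 and 938 and fell by 2.32. NewGene_7306 fell by 1.48 and RWDD4 by 1.07 on the log2 scale. In each of these entries no hypoxia library reached the normoxia libraries.

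In 2 pairs the entry and the gene moved opposite ways. SP3, a zinc finger transcription factor that binds GC-rich promoters, had 1218, 1428 and 1924 counts in normoxia and 3504, 1858 and 3807 in hypoxia, a log2 fold change of 1.15 (SE 0.24, edgeR adjusted p = 0.00215). Its hypoxia 2 library lay just under its highest normoxia library, normoxia 3, by raw count. Divided by library scale (0.844 for hypoxia 2, 1.11 for normoxia 3), hypoxia 2 lay above it. With depth from count over FPKM (1.04 for hypoxia 2, 0.945 for normoxia 3), hypoxia 2 would stay under it. Whether the SP3 groups overlap thus depends on the scale. NewGene_12047, matched to SP3 by Swiss-Prot and KEGG, had 127, 145 and 128 counts against 29, 6 and 16 and fell by 2.82 on the log2 scale (SE 0.44, edgeR adjusted p = 0.000444).

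EEF2KMT, which methylates translation elongation factor 2, went from 1591, 1337 and 1078 counts to 231, 277 and 155 and fell by 2.41 on the log2 scale. NewGene_7984, matched to EEF2KMT by Swiss-Prot and to the related FAM86B1 by NR, rose from 65, 18 and 64 to 151, 273 and 169 counts, a log2 fold change of 2.23 (SE 0.50, edgeR adjusted p = 0.00288). The closest names of NewGene_7984 thus differ between the databases.

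**Figure D5:**
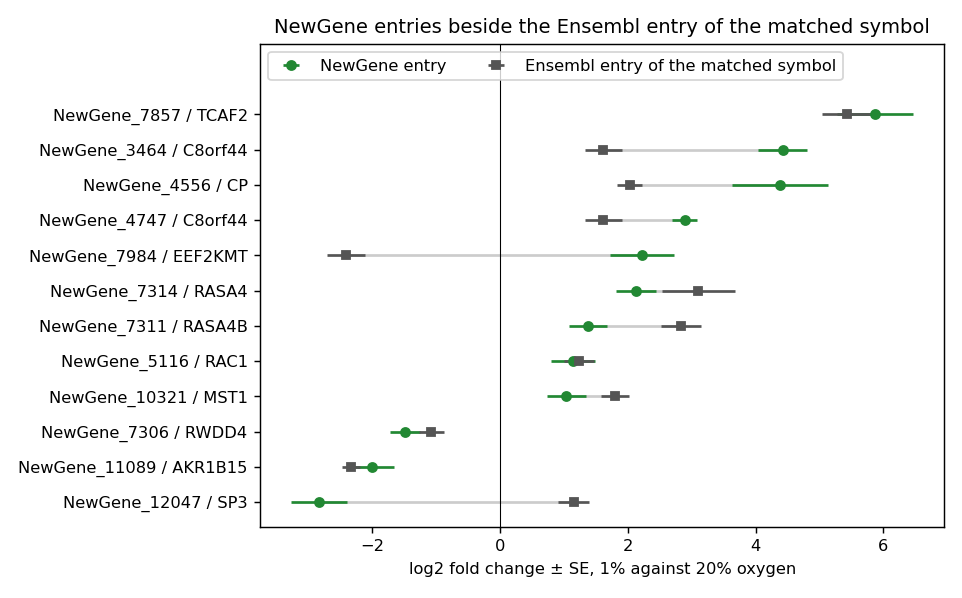
Log2 fold change with its SE (1% against 20% oxygen, horizontal axis) of 12 NewGene entries (circles) and of the Ensembl entry that carries the matched symbol (squares). EEF2KMT and SP3 lie on the other side of 0 from their NewGene entries; in the other 10 pairs both points lie on the same side.

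Some identifiers lie close together in number. Of 17 pairs of NewGene entries whose numbers differ by 3 or less, 14 moved the same way, among them NewGene_7773 and NewGene_7775. As 81.1% of all NewGene entries were higher in hypoxia, most pairs share a direction whatever their numbers, so nothing particular to close numbers is read from this count. Whether close numbers mean close positions is not stated. The pairs that moved apart were NewGene_4747 and NewGene_4749, NewGene_9447 and NewGene_9449, and NewGene_11843 and NewGene_11845. The first of these were C8orf44 and an entry with no Swiss-Prot match. In the second, NewGene_9447 (matched to C8orf49) went from 20, 16 and 42 counts to 418, 234 and 321, and NewGene_9449 (matched to ARRDC1-AS1) fell by 1.01 on the log2 scale.

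The libraries of a group were not interchangeable for these entries. Hypoxia 2 was the highest hypoxia library in 93 of 190 entries and normoxia 1 the highest normoxia library in 80, by normalized counts. These tallies depend on the scale. Hypoxia 2 had a recovered scale of 0.844 but a depth from count over FPKM of 1.04. Summed normalized counts were 356464, 399120 and 354785 in hypoxia 1, 2 and 3, where summed FPKM was 2860, 2907 and 2877. The same tallies over all fitted entries were not made. Over the 162 entries with at least 50 mean normalized counts, deviations from the group mean in normoxia 1 and hypoxia 2 had r = 0.377, and those in normoxia 3 and hypoxia 2 had r = -0.321. Over all fitted entries with a mean of at least 50 counts, the same library pairs had r = 0.625 and r = -0.569. The pattern is thus not particular to NewGene entries. These are descriptions across entries that share libraries and scale. The 2 entries whose groups overlapped were NewGene_3727, matched to LINC00205, with 27, 34 and 14 counts in normoxia and 24, 169 and 207 in hypoxia, and NewGene_10005, matched to TMEM185A, with 136, 161 and 94 against 421, 451 and 123. In the first, hypoxia 1 stayed at the normoxia level, and in the second hypoxia 3 did. Without hypoxia 1 the adjusted p of NewGene_10005 was 0.0508 and without normoxia 3 it was 0.0566 (edgeR), against 0.0179 with all libraries. Without normoxia 2, NewGene_2778 and NewGene_7689 lost the call, at adjusted p = 0.0503 and 0.0566 (edgeR).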

How the data were processed

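Counts and FPKM of 6 libraries, with a false discovery rate (a p-value adjusted by the authors) and a log2 fold change for each entry, were read from the authors' deposited table, per the file headers. RNA was TRIzol-extracted and DNase-treated and libraries were made with a SMARTER mRNA kit, per the labels' protocols; for the aligner, counter, genome build, strand setting and assembly of NewGene entries, nothing was found (not given in the sources used here). Groups follow the sample titles. Of 2681 entries, 6 with an Ensembl identifier were left out because their deposited log2 fold change differed by more than 1 from their own counts. As the table lists selected entries, library scales (0.844 to 1.11) were recovered from the deposited log2 fold changes of 1442 entries with over 200 counts in each library (median absolute residual 0.000202). Counts divided by scale are the normalized counts. edgeR 4.0.16 in R 4.3.3 (glmQLFit, glmQLFTest, filterByExpr, which removed 0 entries) was fitted to all 2675 entries and adjusted by Benjamini-Hochberg; the script was tested on simulated data. Alternatives were TMM, depth from count over FPKM, DESeq2 1.42.0, limma 3.58.1 on log2(FPKM + 1) and log2(FPKM + 0.1), other filters, a replicate block, an adjusted p of 0.01 and each library left out. No library pair agreed within sampling noise (within groups, chi-square divided by its degrees of freedom was 13.0 to 267). Each edgeR SE is the absolute log2 fold change divided by the square root of the quasi-likelihood F statistic. Intervals, floors and SEs rest on counts whose full library totals are not used here. Named entries are the 10 largest rises and falls with a mean of at least 20 normalized counts and no overlap, the 5 highest by FPKM, up to 4 per annotation class, entries at 0 throughout a group and pairs with an Ensembl entry, of which 1 is not reported here. A few outside this rule are named to complete a class, the pairs or a set of exceptions, chosen after their values were seen. Classes were read from the annotation columns by keyword. Members, lists and rules were chosen with earlier results of these data known.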

Additional observations from a re-analysis of the deposited data

How the results depend on the processing

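The counts of 154 NewGene entries higher and 36 lower were also obtained with DESeq2, with depth from count over FPKM, without a filter and with a mean of at least 10 counts. The filter of the main fit removed 0 entries. The fits without a filter and with a mean of at least 10 counts gave the same median, 1.60, and so repeat the main fit. DESeq2 used the same recovered library scales. The median log2 fold change was 1.60, and became 1.08 with TMM, 1.36 with depth from count over FPKM, 0.74 with limma on log2(FPKM + 1) and 1.27 with limma on log2(FPKM + 0.1); a pseudocount lowers the fold of low entries by construction. The counts were 139 and 36 with TMM, 151 and 36 with limma on log2(FPKM + 1), 149 and 36 with limma on log2(FPKM + 0.1), and 147 and 36 at an adjusted p of 0.01. Leaving out 1 library gave 152 to 154 higher, 36 lower and a median log2 fold change of 1.52 to 1.71. No entry changed sign under any of these. Every entry had been selected by the authors as changed, at an absolute log2 fold change of at least 1.00. Stable counts and signs were therefore largely set in advance. NewGene_5116, NewGene_10321, NewGene_10005, NewGene_2778, NewGene_7689 and NewGene_2696 are among the 15 that lost the call with TMM. Deviations of same-numbered libraries had correlations of -0.399, -0.149 and 0.491 over the fitted entries with a mean of at least 50 counts. Deviations from a mean of 3 libraries are tied to each other, so these values cannot show whether the libraries were paired. A fit with the replicate block gave 154 higher, 36 lower and a median of 1.62. Low counts limit the entries at 0: 28 of the 190 had a mean under 50 normalized counts. The full libraries, the entries that did not pass the authors' selection, and the positions and sequences of NewGene entries are not analysed here.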
